A study of Mus musculus with 4 samples.

Results

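Deaf1 ChIP-seq peaks at the 4 mouse genes for the beta subunits of voltage-gated calcium channels, Cacnb1, Cacnb2, Cacnb3 and Cacnb4, were collected from the peak lists of 2 replicates. A peak was assigned to a gene when it lay inside the gene's RefSeq span or within 5 kb of it. This gave 34 of the 65606 peaks of replicate 1 and 19 of the 26503 peaks of replicate 2, at 4 of 21631 protein-coding genes. The family was chosen by the measured fold enrichment of 1 peak at Cacnb3, which was already known to be among the highest of both lists. The height and rank of that peak are therefore a description and carry no test.

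The cells were C2C12, an established mouse line of myoblasts that can be differentiated in culture. The sample labels call them myocytes, and the series' design text speaks of differentiated myoblasts. The series holds 2 samples immunoprecipitated with a Deaf1 antibody and 2 samples of input chromatin, all from this line after fixation with 1% formaldehyde and enzymatic digestion of the chromatin, with no genotype or treatment named. A control IgG is mentioned in the protocol and was not used here. The input samples were not analysed here. Because nothing in the labels says that the replicates were separate cultures, the spread between them may be technical, and all of the chromatin comes from 1 cell line. Peak lists hold no expression values, so the labelled cell type could not be checked against marker genes.

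Voltage-gated calcium channels are built on a pore-forming alpha1 subunit, with an intracellular beta subunit, an alpha2delta subunit and, in skeletal muscle, a gamma subunit. The beta subunit binds the intracellular loop of alpha1 known as the alpha interaction domain, raises the number of channels at the surface and changes their gating. Cacnb1 encodes the beta subunit of skeletal muscle, where with the alpha1 subunit Cacna1s it is needed for excitation-contraction coupling. Cacnb2 is the main beta subunit of the heart, Cacnb3 is known from brain and smooth muscle, and Cacnb4 is a brain subunit whose loss causes the lethargic mouse phenotype. Deaf1 is a transcription factor with a SAND domain that binds DNA containing TTCG.

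All 4 genes had Deaf1 signal in both replicates at an annotated transcription start, and Cacnb3 stood highest. Fold enrichment, a value the authors gave to every peak, is the ratio of fragments at the summit to the background that the peak caller estimated. At the summit beside its own start the fold was 34.2 in replicate 1 and 39.8 in replicate 2 for Cacnb3. It was 21.4 and 22.4 for Cacnb1, 22.0 and 19.7 for Cacnb2, and 18.8 and 20.1 for Cacnb4. The other 3 genes thus lay close together in both replicates, and their order changed from one replicate to the next. Cacnb3 was above all of them in both.

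A region was called shared when peaks of both replicates overlapped by at least 1 bp, and each was ranked by the lower of its 2 folds. Every gene of the family had at least 1 shared region in its span plus 5 kb, as did 63.6% of all protein-coding genes. In 4 of 4 genes, 1 end of the gene span had summits of both replicates no more than 1 kb away, against 51.6% of protein-coding genes. Of the genes with a start listed in the RefSeq promoter table, 54% had both summits within 1 kb of the same start, and the 4 family members were among them. By starts, 7 of the 9 listed for the family were occupied in this sense, against 52.1% of all listed starts. With 4 genes chosen on 1 of these peaks, none of these counts sets the family apart.

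**Figure D1:**
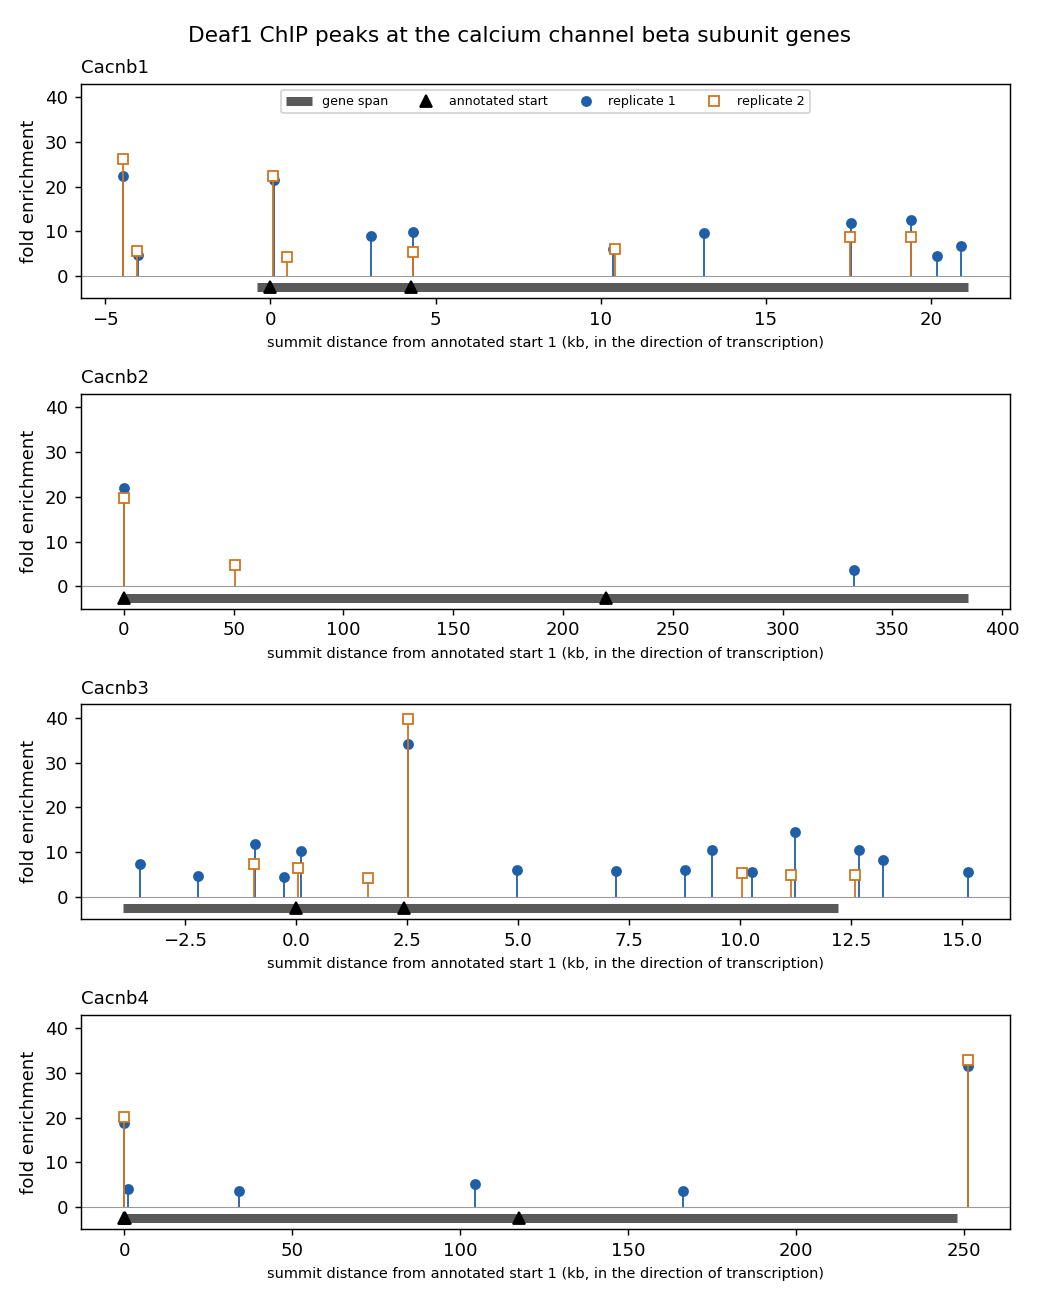
Fold enrichment of each Deaf1 peak of Cacnb1, Cacnb2, Cacnb3 and Cacnb4 (vertical axis) against the distance of its summit from annotated start 1 in kb, in the direction of transcription (horizontal axis, scaled separately for each gene), by replicate, with listed starts marked. The highest Cacnb3 peak reaches 34.2 and 39.8 beside start 2, while the highest peaks of Cacnb1 and Cacnb4 lie outside their own spans, at neighbouring genes.

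Whole-series values bound what a single peak can show. Replicate 1 had 65606 peaks with a median fold of 6.07, and replicate 2 had 26503 with a median of 8.34. The lists overlapped in 22880 shared regions on chromosomes 1 to 19 and X, with median folds of 12.5 and 9.48. The fold of replicate 1 was 1.20 times that of replicate 2 at the median shared region. Summit pileup, the number of fragments covering a summit, was recovered from each peak's fold and p-value and had medians of 19 and 23. The highest fold was 35.8 in replicate 1 and 42.5 in replicate 2, so the main Cacnb3 peak was near the top of both.

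Cacnb3 (gene ID 12297) spans 16101 bp of chromosome 15, from 98628436 to 98644536 on the plus strand of GRCm38.p6, the assembly behind mm10. RefSeq lists 21 transcripts for it, and the promoter table gives 2 starts. Start 1 is at 98632328 and start 2, which lies 2439 bp downstream, is at 98634767. The main shared region ran from 98634128 to 98635470, which is 1343 bp, and 6.64% of all shared regions were at least that wide. Its summits were at 98634848 in replicate 1 and 98634854 in replicate 2, which is 81 and 87 bp downstream of start 2. The summits were 6 bp apart, and 28.5% of shared regions had summits no more than 10 bp apart.

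At the main Cacnb3 summit 106 fragments were counted in replicate 1, with a 95% exact Poisson interval of 86.8 to 128.2. In replicate 2 there were 104, with an interval of 85.0 to 126.0. These intervals cover counting error only. The estimated background of 2.13 and 1.64 fragments equalled the lowest value of each list. The −log10 q-value, the authors' significance score adjusted for multiple tests, was 130.1 and 138.9. The peak ranked 4 by fold in each list, and 17 and 23 by pileup. It thus stood higher in its lists by fold than by the number of fragments, and a fold is larger where the background is at its lowest. Backgrounds above the list's lowest value occurred in 44.7% of the 4662 replicate 1 peaks of chromosome 15 and in 42.7% of its 1791 replicate 2 peaks, against 21.4% and 24.97% of all peaks. The main Cacnb3 peak was not among these.

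**Figure D2:**
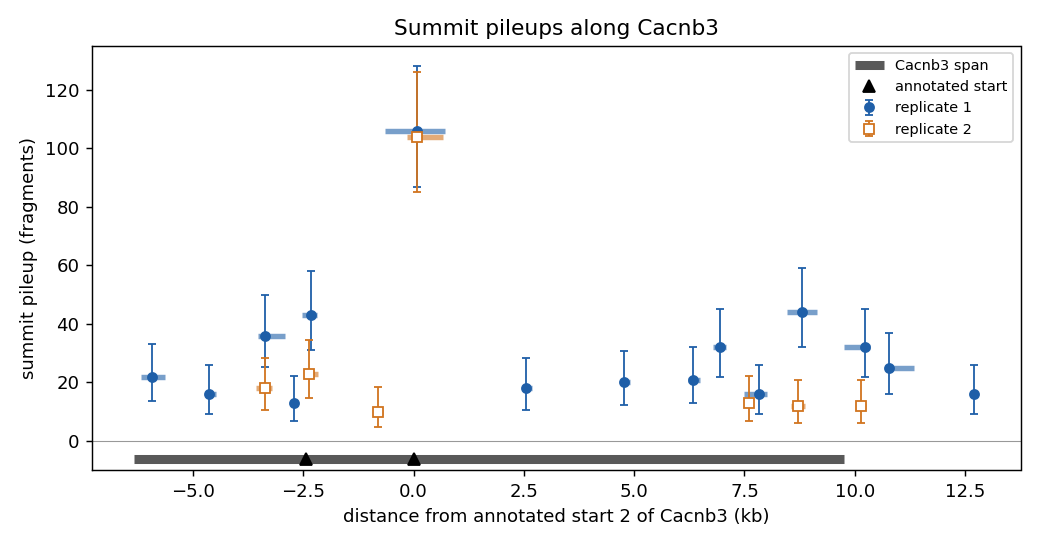
Fragments at the summit of each Cacnb3 peak (vertical axis, with 95% exact Poisson intervals for counting error) against the summit's distance in kb from annotated start 2, for both replicates, with thick horizontal bars for the extent of each peak. The peak beside start 2 holds 106 and 104 fragments, and the peak nearest start 1 holds 43 and 23.

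Ranked by the lower of its 2 folds, the Cacnb3 region was placed 2 among 22880 shared regions, level with a region in Utrn. Ranked by the mean fold it was placed 1. The region lay 5692 bp from the nearest end of any protein-coding gene, and among the 10744 shared regions more than 1 kb from every such end it was placed 1. Distance from the span's ends does not place it away from a start. RefSeq's span of Cacnb3 reaches 6331 bp upstream of start 2. Over the series, 6200 shared regions more than 1 kb from gene ends lay inside a gene with a listed start, and 1414 of them (22.8%) were within 1 kb of one. Of the 100 highest, 87 were.

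**Figure D3:**
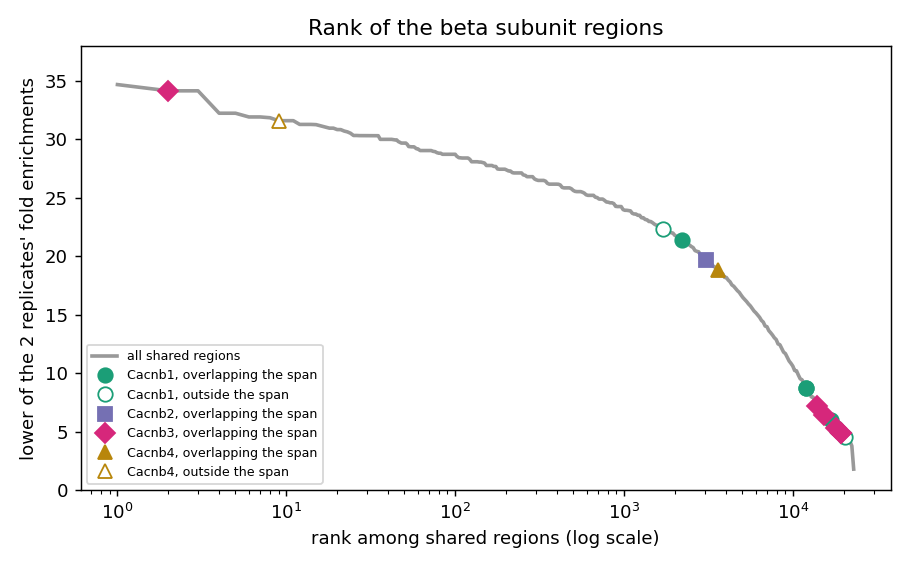
Lower of the 2 replicate folds (vertical axis) of all shared regions against their rank (horizontal axis, log scale), with the regions of the beta subunit genes marked. The main Cacnb3 region is placed 2 of 22880, and the highest regions on the spans of Cacnb1, Cacnb2 and Cacnb4 are placed 2190, 3055 and 3596.

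The promoter sequences show how the 2 starts of Cacnb3 differ, and how occupied starts of the other genes compare with unoccupied ones. The 250 bases before each start are printed 5′ to 3′ on the gene's strand, from RefSeq on GRCm38.p6. Capitals mark TTCG, and CGAA, which is TTCG on the other strand, with neither overlapping the other in these windows. Cacnb3 start 2 and start 1 are given for the contrast inside the gene, Cacnb1 for an occupied pair of unlike sequence, Cacnb2 for an occupied and an unoccupied start, and Cacnb4 start 3 for an unoccupied start that holds TTCG.
Cacnb3 start 2, chr15:98634517-98634766, plus strand: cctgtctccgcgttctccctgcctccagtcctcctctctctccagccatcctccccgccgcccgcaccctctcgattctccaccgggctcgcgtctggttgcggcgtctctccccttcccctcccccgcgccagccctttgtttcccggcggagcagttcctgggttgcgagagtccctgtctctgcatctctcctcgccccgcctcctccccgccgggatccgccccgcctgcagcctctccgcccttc
Cacnb3 start 1, chr15:98632078-98632327, plus strand: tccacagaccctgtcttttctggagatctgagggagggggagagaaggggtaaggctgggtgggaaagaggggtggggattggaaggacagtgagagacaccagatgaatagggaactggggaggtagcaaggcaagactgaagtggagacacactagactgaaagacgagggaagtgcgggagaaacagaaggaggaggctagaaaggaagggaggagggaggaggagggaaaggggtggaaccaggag
Cacnb1 start 1, chr11:98022628-98022877, minus strand: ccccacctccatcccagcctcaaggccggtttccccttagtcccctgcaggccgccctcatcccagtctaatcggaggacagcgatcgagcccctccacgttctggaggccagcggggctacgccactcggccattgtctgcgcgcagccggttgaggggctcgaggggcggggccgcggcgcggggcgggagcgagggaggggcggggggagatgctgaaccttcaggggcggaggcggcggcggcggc
Cacnb1 start 2, chr11:98018373-98018622, minus strand: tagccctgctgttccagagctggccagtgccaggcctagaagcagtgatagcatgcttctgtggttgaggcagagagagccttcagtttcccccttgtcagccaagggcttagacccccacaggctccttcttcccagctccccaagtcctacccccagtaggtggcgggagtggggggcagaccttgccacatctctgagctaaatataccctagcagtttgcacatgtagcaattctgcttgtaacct
Cacnb2 start 1, chr2:14604056-14604305, plus strand: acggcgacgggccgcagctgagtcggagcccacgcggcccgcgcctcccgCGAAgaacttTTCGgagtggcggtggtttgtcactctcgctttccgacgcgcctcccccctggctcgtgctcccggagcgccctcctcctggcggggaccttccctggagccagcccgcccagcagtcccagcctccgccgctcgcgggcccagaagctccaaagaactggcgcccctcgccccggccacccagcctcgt
Cacnb2 start 2, chr2:14823842-14824091, plus strand: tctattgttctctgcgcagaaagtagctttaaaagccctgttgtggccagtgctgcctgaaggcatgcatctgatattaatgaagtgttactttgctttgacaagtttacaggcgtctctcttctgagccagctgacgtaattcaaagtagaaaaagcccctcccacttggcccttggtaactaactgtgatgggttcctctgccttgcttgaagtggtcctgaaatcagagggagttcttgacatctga
Cacnb4 start 3, chr2:52558612-52558861, minus strand: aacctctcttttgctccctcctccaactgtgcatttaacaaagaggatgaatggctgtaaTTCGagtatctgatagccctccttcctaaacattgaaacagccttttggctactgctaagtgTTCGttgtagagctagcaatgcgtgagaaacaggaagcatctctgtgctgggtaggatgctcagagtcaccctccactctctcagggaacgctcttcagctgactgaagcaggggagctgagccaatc

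The window before Cacnb3 start 2 held 23 CG dinucleotides and no TTCG on either strand, although the highest peak of the family lay beside it. The window before Cacnb3 start 1 held 2 CG and also no TTCG. Cacnb2 start 1, occupied at folds of 22.0 and 19.7, held 2 matches. Cacnb4 start 3 also held 2, and no summit of either replicate lay within 1 kb of it. Cacnb4 start 2, whose window is not printed, held 1 and was occupied at folds of 18.8 and 20.1. A match to these letters is not a binding site, and its lack says only that the letters are not in this window. The summits of the main Cacnb3 peak lay downstream of start 2 and outside the printed bases.

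Of the 9 family windows, 3 held TTCG on either strand, against 42.97% of the 21045 windows in the table. Over all windows TTCG was present in 54.5% of those at occupied starts and in 30.4% of the others. The number of CG differed too, with a median of 18 at occupied and 3 at other starts. In the family the starts at the main peaks held 26 CG in Cacnb1, 30 in Cacnb2 and 23 in Cacnb3, and 37 and 23 at starts 1 and 2 of Cacnb4. Both unoccupied starts held few, with 3 at Cacnb2 start 2 and 4 at Cacnb4 start 3. Cacnb1 start 2 and Cacnb3 start 1 differed from this, since they held 1 and 2 CG and were occupied. Among 4662 windows with at most 2 CG, 3.05% were occupied, against 95.4% of the 3689 with 23 or more. These CG limits were taken from the family's own windows after the data were seen.

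Cacnb3 start 1 carried lower peaks than start 2. The peak nearest to it had folds of 10.1 and 6.47, with summits 114 and 59 bp downstream of the start. Its pileups were 43 and 23 fragments over backgrounds of 3.34 and 2.71, both raised above the lists' lowest values. A further shared region from 98631198 to 98631858 had its summits 924 and 937 bp upstream of start 1, with folds of 11.8 and 7.21. In both replicates the fold beside start 2 was thus more than any fold beside start 1. Such an order is common, since in 231 genes start 1 and a start more than 2 kb downstream were both occupied and the downstream start had the higher lower-of-2 fold in 108 (46.8%).

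Downstream of start 2 another 3 shared regions lay toward the 3′ end of Cacnb3. The region from 98642258 to 98642783 had folds of 5.43 and 5.31. The region from 98643243 to 98643919 had folds of 14.4 and 4.93, a ratio of 2.91 between replicates, and 0.629% of shared regions had a ratio as high. The region from 98644515 to 98645122, which crosses the 3′ end of the span, had folds of 10.5 and 4.93. Both of these were much higher in replicate 1. By the region that crosses it, with summits 466 and 379 bp away, Cacnb3 was occupied at the 3′ end of its span. These summits lay outside the span, 377 and 464 bp from Ddx23, so the region cannot be given to Cacnb3 alone. Near the 5′ end of the span a peak was present in replicate 1 alone, 395 bp inside and of fold 7.34.

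Cacnb3 was dense in peaks for its size. Inside its span plus 5 kb there were 15 peaks in replicate 1 and 7 in replicate 2, and these made 6 shared regions. That is 5.75 and 2.68 peaks per 10 kb, and 1.34% and 2.37% of protein-coding genes were as dense. The median gene had 0.412 and 0.195. Counted within 1 kb of each span, replicate 1 had 14 peaks at the neighbour Adcy6 (98589978 to 98610287) and 7 at Rnd1 (98669205 to 98677461). It had 7 at Ddx23 and 2 at 4930415O20Rik. Replicate 2 had 4, 1, 2 and 2, in the same order. In both replicates the Ddx23 count overlaps that of Cacnb3, since peaks near the 3′ end of Cacnb3 enter both. These are counts with 1 kb on each side, and no density per 10 kb is given for the neighbours. With 14 peaks at Adcy6, a large number of replicate 1 peaks was thus not particular to Cacnb3 at this locus. Peaks covered 26.0% of the searched sequence in replicate 1 and 8.61% in replicate 2. On the Cacnb3 span itself lay 13 of the 15 replicate 1 peaks and 6 of the 7 replicate 2 peaks. The replicate 1 peaks with summits at 98645551 and 98647464 were inside Ddx23. Of the 15 peaks of replicate 1, 9 had no partner in replicate 2, with folds from 4.47 to 10.5. In replicate 2 there was 1 such peak of 7, with a fold of 4.12. The replicate 1 peak of fold 10.5 at 98641704 also lacked a partner. Of the 15166 replicate 1 peaks at that fold or above, 3.59% did. This peak is at the lower limit of that set, so the share does not describe peaks of similar fold.

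**Figure D4:**
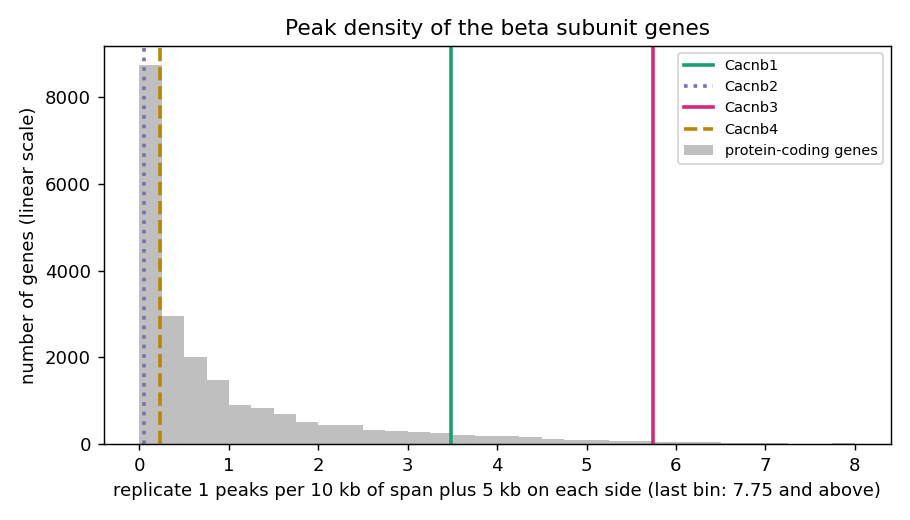
Peaks per 10 kb of span plus 5 kb in replicate 1 (horizontal axis) over all protein-coding genes (vertical axis, number of genes), with the 4 beta subunit genes as lines. Cacnb3 at 5.75 and Cacnb1 at 3.49 lie above the median of 0.412, and Cacnb2 at 0.0506 and Cacnb4 at 0.232 lie below it.

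Cacnb1 (gene ID 12295) spans 21527 bp of chromosome 11, from 98001508 to 98023034 on the minus strand. Its highest region on the span, from 98021912 to 98023025, had folds of 21.4 and 22.4 and pileups of 66 and 58 fragments. The summits were 99 and 70 bp downstream of start 1, at 98022627, and the −log10 q was 69.7 and 64.5. The 2 replicates were close here. This region overlaps the annotated span of Rpl19, a protein of the large ribosomal subunit transcribed the other way, so it cannot be given to Cacnb1 alone. The listed starts of Rpl19, at 98026710 and 98026924, are several kb away and had a region of their own.

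Cacnb1 start 2, at 98018372 and 4255 bp downstream of start 1, was also occupied. Its region from 98018162 to 98018475 had folds of 9.90 and 5.31, with summits 55 and 65 bp downstream of the start. Here, unlike at Cacnb3, the upstream start had the higher fold in both replicates. Toward the 3′ end, regions from 98002831 to 98003533 and from 98004856 to 98005370 had folds of 12.5 and 8.72, and of 11.8 and 8.72. A region from 98011953 to 98012310 inside the gene had folds of 5.99 and 6.07.

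In all, Cacnb1 had 11 peaks in replicate 1 and 8 in replicate 2, which formed 7 shared regions, 5 of them on the span. At 3.49 and 2.54 peaks per 10 kb, 6.93% and 2.77% of protein-coding genes were as dense. Of the replicate 1 peaks 4 had no partner, and every replicate 2 peak had one. Near the 3′ end of the span, replicate 1 alone had summits within 1 kb, at 208 and 928 bp inside with folds of 6.70 and 4.47. The highest region within 5 kb of Cacnb1, from 98026954 to 98027497 with folds of 22.3 and 26.2, was 168 and 160 bp from a start of Rpl19. A lower one from 98026500 to 98026800, with folds of 4.58 and 5.69, was also at Rpl19.

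Cacnb2 (gene ID 12296) spans 384951 bp of chromosome 2, from 14603861 to 14988811 on the plus strand, and held 1 shared region. It ran from 14603974 to 14605174, with folds of 22.0 and 19.7, pileups of 68 and 51 and −log10 q of 72.6 and 54.0. Its summits were 28 and 19 bp upstream of start 1, at 14604306, closer to a start than those of any other gene of the family. The region also overlaps the long noncoding RNA gene Gm32741. Start 2, which lies 219786 bp downstream at 14824092, had no summit nearby, the nearest being 112969 and 169073 bp away.

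The other peaks of Cacnb2 were 1 in each replicate at different places. A peak of fold 3.54 in replicate 1 had its summit at 14937061, and one of fold 4.87 in replicate 2 had it at 14655019. Both had 12 fragments at the summit and neither appeared in the other list. The gene thus had 0.0506 peaks per 10 kb in each replicate, and 71.5% and 62.0% of protein-coding genes were as dense or denser. The pseudogenes Gm13268, Gm13311, Gm13315 and Gm13316 and the noncoding Gm13269, which lie inside the span, had no peak within 1 kb.

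Cacnb4 (gene ID 12298) spans 248290 bp of chromosome 2, from 52428320 to 52676609 on the minus strand. Its region from 52675568 to 52676646 had folds of 18.8 and 20.1, pileups of 58 and 52 and −log10 q of 58.3 and 55.5. The summits were 122 and 222 bp upstream of start 1, at 52676143. Start 2, at 52675859, is 284 bp downstream of start 1, so this 1 region is the one that marks both starts as occupied. Gm46740, a gene 172 bp beyond the Cacnb4 span, is near the same region. Start 3, at 52558611, is 117532 bp downstream of start 1 and its nearest summits were 13134 and 117754 bp away.

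Inside Cacnb4 replicate 1 alone had 4 more peaks, with folds of 3.51, 5.07, 3.51 and 4.15, and replicate 2 had none. The highest region within 5 kb of the gene, from 52424189 to 52425110, had folds of 31.6 and 32.8 and was placed 9 among all shared regions. It lies beyond the 3′ end of Cacnb4, with summits 23 and 42 bp from the start of Arl5a, which encodes an Arf-like GTPase. By the rule it counts for Cacnb4, yet on Cacnb4's own span the highest fold was 18.8 and 20.1. The noncoding A430018G15Rik overlaps the Arl5a region too. The pseudogene Bloc1s2-ps, inside the Cacnb4 span, had no peak within 1 kb.

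The 4 genes differed in where their occupied ends lay. In Cacnb1, Cacnb2 and Cacnb4 both replicates had summits inside the 5′ end of the span, at 506 and 477 bp, 417 and 426 bp, and 344 and 244 bp from it. In Cacnb3 it was the 3′ end, where the nearest summits were 466 and 379 bp outside. A window around gene ends therefore misses the main peak of Cacnb3, which the listed starts recover. Among the family's 16 shared regions, 13 were on a span and 7 were within 1 kb of the gene's own start. The widest were those at main starts, 1114 bp at Cacnb1, 1201 bp at Cacnb2, 1343 bp at Cacnb3 and 1079 bp at Cacnb4, while the median shared region was 542 bp wide.

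Weak peaks made up much of what the replicates did not share. Of the family's peaks, 18 of 34 in replicate 1 (52.9%) had no partner, against 65.0% of the list. In replicate 2 it was 2 of 19 (10.5%), against 6.07%. The median fold of the family's peaks was 7.82 and 6.47, with ranges of 3.51 to 34.2 and 4.12 to 39.8. Their pileups ran from 10 to 106 and from 10 to 104 fragments. A raised background was present at 8 of 34 and 4 of 19 peaks, with highest values of 4.67 and 2.71 fragments.

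Peaks outside the span but within 5 kb of it were counted at Cacnb1, Cacnb3 and Cacnb4. The farthest peaks inside it were those at Rpl19, 3.92 kb from Cacnb1, and at Arl5a, 3210 bp from Cacnb4. For Cacnb3 it was a replicate 1 peak of fold 5.43 inside Ddx23, 2853 bp from the Cacnb3 span. Just outside it were peaks of fold 11.8 and 5.31 at Arl5c, 5455 and 5594 bp from Cacnb1. For Cacnb3 the nearest ones left out on the 5′ side were 5888 and 5369 bp away, with folds of 4.09 and 4.50. On its 3′ side they were at Ddx23, 6226 bp away with a fold of 9.26 and 18096 bp away with a fold of 14.5. For Cacnb2 and Cacnb4 the nearest peaks left out lay much farther off. They were at Nsun6 and Arl5b, 66145 and 66180 bp from Cacnb2 with folds of 15.5 and 22.1, and at Stam2, 65238 and 65288 bp from Cacnb4 with folds of 29.4 and 23.5.

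The spans of 4 other protein-coding genes came within 50 kb of the main Cacnb3 region, and each had a shared region. Adcy6, an adenylyl cyclase whose span ends 23841 bp from the Cacnb3 region, had folds of 25.3 and 29.2, placed 599. Ddx23, an RNA helicase of the spliceosome whose span begins 843 bp beyond Cacnb3, had 14.2 and 14.5, placed 6801. Rnd1 had 9.90 and 4.93, and 4930415O20Rik, whose span ends 44540 bp away, had 4.38 and 3.93. The Cacnb3 region was higher than the highest region of each of these genes in both replicates, which its choice for height made likely beforehand.

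Several regions came close to the Cacnb3 region by the lower of the 2 folds over 2 replicates. Ank was placed 1 with 34.7 and 35.3, and Utrn was level with Cacnb3 at 34.2 and 34.5. Then came Zdhhc17 with 32.2 and 41.0, a region shared by Fam83h and Iqank1 with 32.2 and 33.4, and one shared by Cnppd1 and Retreg2 with 31.9 and 34.1. Dip2c had 31.9 and 39.8, and Hagh had 34.5 and 31.9. In replicate 1 Ank and Hagh were above Cacnb3, and in replicate 2 Zdhhc17 was above it and Dip2c was level with it. Ank codes for a pyrophosphate transporter and Utrn for utrophin, the homologue of dystrophin. The pileup of Cacnb3 alone spans a wide counting interval, so the order among these is not resolved by counting.

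Among regions more than 1 kb from every protein-coding gene end, Abi2 followed with folds of 31.3 and 33.8, Csnk1e with 33.8 and 31.3, and Rai14 with 31.8 and 30.3. A region of chromosome 15 in no protein-coding gene, from 36938347 to 36939174, had 30.3 and 33.0, and Ptp4a3 had 30.3 and 34.9. The Csnk1e and Rai14 regions, like that of Cacnb3, lay at a listed start. Of the 5 regions that followed Cacnb3, 4 were on chromosome 15. That chromosome held 1415 shared regions (6.18%) and 15 of the 100 highest. Whether this and its raised backgrounds bear on the level at Cacnb3 was not tested.

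Genes of the other parts of the channel and its coupling machinery were read in the same way, as a description against which the beta subunits can be seen. Of 46 genes in 5 lists, 41 had a shared region in span plus 5 kb, against 63.6% of protein-coding genes. On the span alone it was 37, against 58.8%. Longer genes offer more sequence in which a region can lie, and gene length was not matched. At a gene end 32 were occupied, against 51.6%. Of the 30 with a listed start 20 were occupied at one, against 54%. These shares are also the background of each single list. Trdn, which encodes triadin, and Sln, which encodes sarcolipin, had no peak in either replicate. Over all protein-coding genes with a shared region, the median of the lower fold at the highest region was 14.8. For the 4 beta subunit genes it was 27.0, a value midway between the Rpl19 and Arl5a regions, which lie outside the spans. On the genes' own spans the median was 20.6, against 14.3 over all protein-coding genes with a region on the span. Both medians of the family include the Cacnb3 peak on which it was chosen, so they are a description only. These lists were chosen with earlier results of these data known.

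The alpha1 subunits form the calcium pore. All 10 had a shared region, 5 were occupied at an end, and the median lower fold was 14.0. The highest were Cacna1a with 19.4 and 29.4, Cacna1b with 19.2 and 18.6, and Cacna1g with 17.9 and 21.2. Cacna1s, the partner of Cacnb1 in skeletal muscle and looked up after the values were seen, had 15.01 and 11.0. That region overlaps Ascl5 and lies 1244 bp from the listed start of Cacna1s. Neither it nor the region of Cacna1f, which overlaps Syp, was on the span of the gene it was counted for.

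The alpha2delta subunits are extracellular proteins that raise the surface level of channels. Of 4, 3 had a shared region, and the median lower fold was 10.9. Cacna2d1, the form found in skeletal muscle channels, had 29.4 and 32.6, placed 54. Cacna2d2 had 10.9 and 11.4, and Cacna2d3 had 11.8 and 10.2. The gamma subunits, membrane proteins of which several are better known as partners of AMPA receptors, had a shared region in 7 of 8 and a median of 11.4. Cacng2 had 16.2 and 15.6, Cacng8 had 13.4 and 14.8, and Cacng4 had 13.1 and 14.8.

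The RGK proteins are small GTPases that bind beta subunits and inhibit the channel. All 4 had a shared region and were occupied at an end, and the median lower fold was 15.1. Gem had 18.2 and 17.1, Rrad had 16.0 and 15.2, and Rem1 had 15.01 and 21.2. Of 20 coupling and calcium store genes, 17 had a shared region and 13 were occupied at an end, with a median of 14.8. The regions counted for Stac3 and Casq1 were off their spans, at Ndufa4l2 and Pea15a. That of Jph3, with 12.8 and 10.6, was also off the span, in no protein-coding gene and 18 bp from the listed Jph3 start. On the Jph3 span the highest region had 11.5 and 9.10. Jph1, which holds the sarcoplasmic reticulum to the surface membrane, had 27.5 and 34.5, placed 180. Fkbp1a, a binding protein of the ryanodine receptor, had 22.0 and 23.6, and Atp2a2, a calcium pump of the store, had 18.6 and 18.8. None of the genes in these lists was as high as Cacnb3 in both replicates. The choice of Cacnb3 for its height made this likely beforehand, so it says nothing about the lists.

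**Figure D5:**
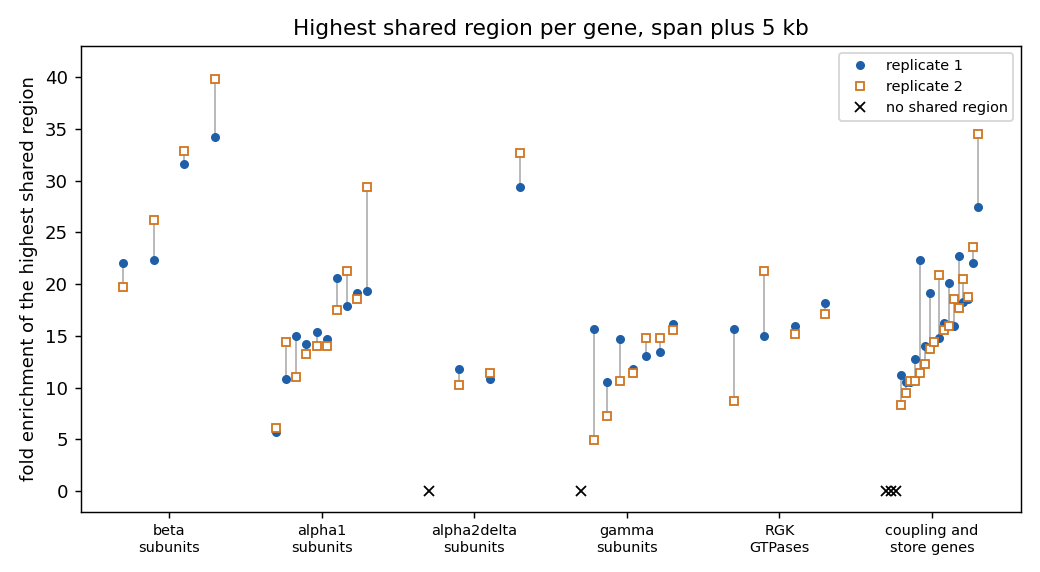
Fold enrichment in replicate 1 and replicate 2 (vertical axis), joined by a line, at the highest shared region in span plus 5 kb of each gene in the beta subunit list and 5 other lists (horizontal axis), with genes that had no shared region as crosses at 0. Cacnb3 is highest at 34.2 and 39.8, and the points of Cacnb4 at 31.6 and 32.8 rest on the region at the start of Arl5a.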

How the data were processed

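Peaks of 2 Deaf1 ChIP samples were used, 1 list per sample and not pooled. BWA, MACS2 and mm10 are named in the submitters' processing notes. No version, parameter or control library is named in the sources used here. The fold enrichment is a ratio deposited by the authors, as are the −log10 p-value, the −log10 q-value and the score, which is 10 times the −log10 p. The lists give no read depth. Summit pileup and background were solved from the deposited fold, (pileup + 1)/(background + 1), and the deposited p, taken as a Poisson tail. The largest misfit in −log10 p was 4.07e-05 and 3.87e-05, and the solver was tested on simulated data. Pileup intervals are exact Poisson intervals at 95%.

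Gene spans and starts came from RefSeq tables of GRCm38.p6, and 17274 of the 21631 protein-coding genes had a listed start. The tables are not complete. Positions are 1-based. An end or start was occupied when each replicate had a summit no more than 1 kb from it. TTCG was searched on both strands of the 250 bases before each start.

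The named genes were the 4 members, up to 3 per list by the lower of the 2 folds and those with no peak, genes within 50 kb of the main Cacnb3 region or within 5 kb of another member, and the holders of the 5 regions next in rank. The members and lists were chosen with earlier results of these data known, and the analysis of listed starts was added after the files were seen. No comparison of conditions exists here, so no test was run. Alternatives were other windows, stricter fold and q limits, other overlap rules, replicate 1 shortened to the length of replicate 2, each replicate alone and other rankings. Protein sequences were not used here. Python 3.11.15, pandas 2.3.3, numpy 2.4.6, scipy 1.17.1 and matplotlib 3.10.9 were used.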

Additional observations from a re-analysis of the deposited data

How the results depend on the processing

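Of 145 values under alternatives, 124 stayed within the spread or within 1.5 times the main count and 21 moved. Part of this was fixed beforehand, so the tally does not measure robustness. Stricter fold and q limits could not change a highest fold far above them. Leaving out the replicate with the higher fold returned the same lower fold. The rank of the main Cacnb3 region, 2 by the lower fold, was 4 by the higher fold, 1 by the mean fold and 1 by the lower −log10 q, and 4 in either replicate alone. The highest fold of Cacnb4 was 18.8, and its number of shared regions 1, with no window, 1 kb or 2 kb around the span, since the region at Arl5a then drops out. Within 300 bp of a start, 13 other channel and coupling genes were occupied in place of 20. With each replicate left out in turn, the highest fold ran from 22.3 to 26.2 for Cacnb1, 19.7 to 22.0 for Cacnb2, 34.2 to 39.8 for Cacnb3 and 31.6 to 32.8 for Cacnb4. The number of peaks that stood in for shared regions then ran from 8 to 11 for Cacnb1, 2 to 2 for Cacnb2, 7 to 15 for Cacnb3 and 2 to 6 for Cacnb4. Beta subunit genes occupied at an end were 3 with 500 bp, where Cacnb1 drops out with a summit at 506 bp, and 3 with peaks of fold 5 or more, where Cacnb3 drops out, and 4 at a start under every alternative run. No paired analysis was possible because no result comes from a test. Counting error at weak summits is wide, with 10 fragments at the lowest.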
